A study of Mus musculus with 22 samples.

Results

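The 1000 autosomal windows of 50 kb with the most histone H3.3 in control testis were taken from ChIP-seq (sequencing of immunoprecipitated chromatin) on the whole mouse testis. Membership was selected on measured H3.3. Of the 54520 windows counted, 49264 were autosomal and 47983 of these had a count of 200 or more in the input of Cg (DNA sequenced without precipitation). The 1000 windows with the highest ratio of the summed H3.3 counts of Cg replicates 2 and 3 to the Cg input count are called the H3.3-rich windows here. That ratio ran from 3.29 to 4.80 with a median of 3.51, against a median of 1.62 in the other 46983 eligible windows. At the threshold the last windows in held Fam214b and Pigo (3.2921), Zfp865 and Zfp580 (3.2919) and Qk (3.2914), and the first windows out held Kctd2 and Mrpl58 (3.2914), Nup98 and Art1 (3.2905) and Wnk1 (3.2901). The ranking is nearly continuous there.

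The series has 22 libraries of testis from mice with Robertsonian translocations, in which a pair of chromosomes is joined at the centromeres, and from controls. H3.3 was measured at 6 weeks of age in 3 libraries each of Cg (strain B6.SPRET7MOLF12, a control with no translocation), 1Rb (F1 of CBy.RBF-Rb(8.12)5Bnr/J and B6.SPRET7MOLF12) and 3Rb (F1 of B6.SPRET7MOLF12 and RBF/Dnj). γH2AX, the phosphorylated form of histone H2AX, was measured at 4 weeks in 3 libraries each of 1Rb_M (the cross used for 1Rb), 1Rb_P (F1 of C57BL/6J and CBy.RBF-Rb(8.12)5Bnr/J) and 3Rb, and in 1 library of B6 (C57BL/6J), whose antibody carries another supplier label. All carriers were heterozygous; the labels name the translocation of chromosomes 8 and 12 for 1Rb, and from what is known of RBF/Dnj, 3Rb carries 8 joined to 12, 1 to 3 and 9 to 14. Inputs exist for Cg (6 weeks), B6 and 1Rb_M (both 4 weeks), and the input titled 1Rb_M bears the strain label of the 1Rb_P cross. The carriers therefore differ from the controls and from each other in strain background as well as in translocations, and the marks were not taken at 1 age. The labels number the replicates without saying that they are separate animals, so every p-value below refers to the scatter of these libraries alone, which may be technical.

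H3.3 differs from the canonical histone H3 by a few residues and is put into chromatin outside replication, by the HIRA complex at active genes and by DAXX with ATRX at repeats and telomeres. In the testis it also replaces H3 on the unsynapsed sex chromosomes of meiotic spermatocytes and accumulates before protamines replace most histones in spermatids. γH2AX marks double-strand breaks early in meiotic prophase and then coats unsynapsed chromatin, where transcription is silenced, through ATR with its partners and the adaptor MDC1. Whole testis holds germ cells of all stages with Sertoli, Leydig and other somatic cells, so a change in the mix of cells and a change of the mark within cells cannot be told apart in any comparison below.

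The chosen windows were rich in gene starts. In the RefSeq promoter table (GRCm38.p6, 250 bases before to 50 after a start site), 740 of the 1000 windows held at least 1 entry, 2201 entries in all, against 16389 of the other 46983 windows with 29190 entries. The promoters in the H3.3-rich windows had a median of 21 CG dinucleotides per 300 bases (quartiles 11 and 29) and a median GC content of 60.7%, against 7 (3 and 20) and 52.3% elsewhere. With 15 or more CG dinucleotides there were 67.4% of promoters in the H3.3-rich windows and 32.8% of the others. Of all promoters with 25 or more, 14.2% lay in the H3.3-rich windows, and of those with 3 or fewer, 1.82%.

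From each of the 4 highest-ranked windows that have promoter entries, only the first entry by position was taken, and any further entries are not shown. The 4 entries show that the CG richness holds on average and not for each promoter. They are printed 5′ to 3′ with each CG in capitals: Gm10505 (chr17:27324946-27325245, plus strand) in the window of rank 1, Gm39761 (chr2:18196537-18196836, minus strand) in that of rank 3, Hmg20b (chr10:81350377-81350676, minus strand) in that of rank 7 and Gm36712 (chr16:91651518-91651817, plus strand) in that of rank 12.
Gm10505: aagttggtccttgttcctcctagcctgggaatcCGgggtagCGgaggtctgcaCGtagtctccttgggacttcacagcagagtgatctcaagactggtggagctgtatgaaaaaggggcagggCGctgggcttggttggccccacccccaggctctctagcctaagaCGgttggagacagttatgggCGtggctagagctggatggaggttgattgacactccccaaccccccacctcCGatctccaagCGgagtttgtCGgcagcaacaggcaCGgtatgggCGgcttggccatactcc
Gm39761: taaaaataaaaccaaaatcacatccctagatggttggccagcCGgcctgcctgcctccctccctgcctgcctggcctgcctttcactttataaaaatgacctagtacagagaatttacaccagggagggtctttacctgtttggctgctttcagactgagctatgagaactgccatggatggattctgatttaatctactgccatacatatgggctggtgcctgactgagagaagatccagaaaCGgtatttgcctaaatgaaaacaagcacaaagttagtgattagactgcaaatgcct
Hmg20b: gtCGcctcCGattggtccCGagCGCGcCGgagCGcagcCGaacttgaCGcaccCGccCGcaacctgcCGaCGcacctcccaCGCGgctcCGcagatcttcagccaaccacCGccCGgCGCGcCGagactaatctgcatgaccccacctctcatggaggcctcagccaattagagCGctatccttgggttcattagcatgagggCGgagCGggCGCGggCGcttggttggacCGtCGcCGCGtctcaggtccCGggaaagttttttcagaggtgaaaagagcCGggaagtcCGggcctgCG
Gm36712: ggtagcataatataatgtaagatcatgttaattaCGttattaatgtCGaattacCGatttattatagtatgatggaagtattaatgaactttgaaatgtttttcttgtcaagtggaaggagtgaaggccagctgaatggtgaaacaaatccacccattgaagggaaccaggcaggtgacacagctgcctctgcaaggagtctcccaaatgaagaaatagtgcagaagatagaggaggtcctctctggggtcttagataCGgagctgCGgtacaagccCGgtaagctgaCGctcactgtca
They held 11, 2, 35 and 7 CG dinucleotides. Hmg20b, which encodes an HMG-box subunit of a histone deacetylase complex, has the CG-rich type of promoter, and Gm39761, in a window shared with Mllt10, has almost none.

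Short motifs were searched on both strands of the same promoter windows. The GC box letters GGGCGG, which are themselves part of CG-rich sequence, were in 61.7% of the 2201 promoters and in 36.0% of all promoters in eligible windows. TATAAA was in 6.54% against 13.6% of all, CACGTG in 10.8% against 7.15% and TGACGT in 10.5% against 7.57%. CCAAT was in 37.7% against 37.3%, so this motif did not set the windows apart. A match is a description of the letters only.

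Genes were dense in the H3.3-rich windows. They overlapped 2367 distinct protein-coding genes, 11.5% of the 20661 autosomal ones, with a mean of 2.61 per window against 0.806 in the other eligible windows. No coding gene lay in 23 of the 1000 windows (2.30%), against 42.6% of the others, and 432 (43.2%) held 3 or more, against 4.83%. Among all eligible windows, 0.115% of those without a coding gene belonged to the set, 2.16% of those with 1 or 2 genes, 14.5% of those with 3 to 5 and 39.1% of the 161 with 6 or more. Only 4 windows overlapped no annotated gene of any kind, 1 each on chromosomes 7, 12, 14 and 18. At 50 kb a signal cannot be assigned to 1 of the genes in a window or to its promoter or body.

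By chromosome, the set followed gene density. Chromosome 11, the most gene-dense autosome, had 128 windows, or 5.39% of its eligible windows. Chromosomes 17, 19 and 7 came next with 4.36%, 3.78% and 2.96%, and chromosomes 13, 1 and 18 were lowest with 0.767%, 0.781% and 0.799%, against 2.08% over all autosomes. Across the 19 autosomes Spearman's rho between this percentage and the mean number of coding genes per window was 0.851, given as a description. Chromosome 7 lay below the trend and chromosome 17 above it.

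**Figure D1:**
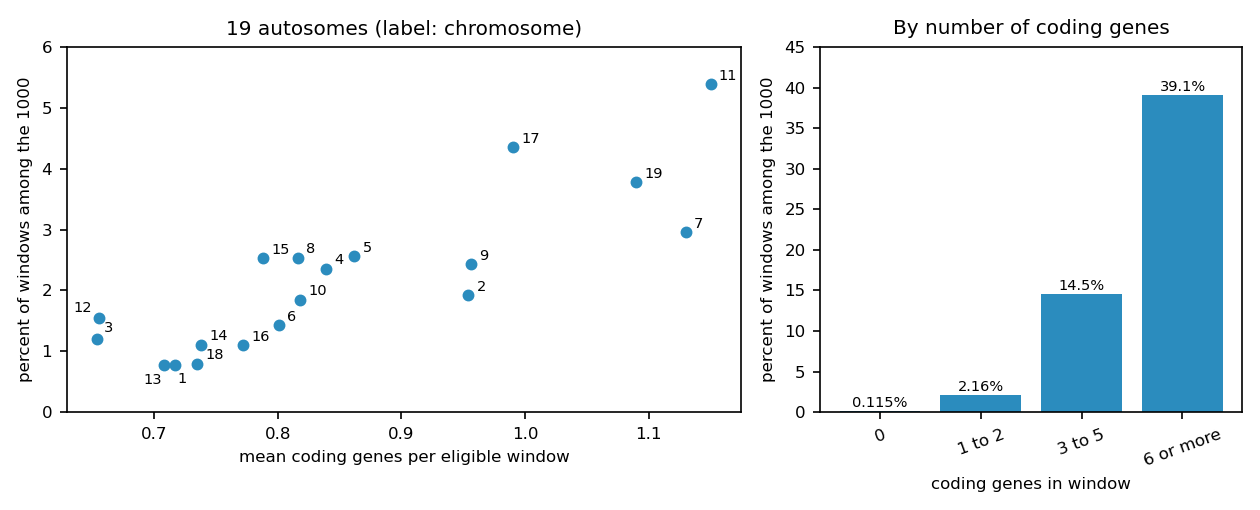
Left: percent of each autosome's eligible windows that are among the 1000 H3.3-rich windows (vertical) against the mean number of coding genes per eligible window (horizontal), 1 point per chromosome. Right: the same percent by the number of coding genes in the window. Chromosome 11 is highest at 5.39%, and the share climbs from 0.115% without coding genes to 39.1% with 6 or more.

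The windows also lay side by side. They formed 733 runs, of which 544 were single windows, and 456 windows (45.6%) had a neighbour in the set. The longest run was 8 windows on chromosome 10 (chr10:80500001-80900000), with 24 coding genes, among them Dot1l (the H3K79 methyltransferase), Oaz1, Izumo4 and the Sertoli cell hormone gene Amh. The second was 7 windows at Btbd9, Glo1 (glyoxalase 1) and Dnah8 (a dynein heavy chain of the sperm tail) on chromosome 17 (chr17:30550001-30900000), and the third 6 windows at Utp18, Mbtd1, Nme2, Nme1 and Spag9 on chromosome 11 (chr11:93850001-94150000). The first run is gene-dense, and the second holds only these 3 coding genes.

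Among the gene lists, those of housekeeping genes, H3.3 genes and chaperones, γH2AX signalling and meiotic prophase had the largest shares in the set. Of the listed housekeeping genes 9 of 17 autosomal ones overlapped an H3.3-rich window (52.9%), among them Gapdh, Gusb and Polr2a. Of genes for H3.3 itself and its chaperones and partners, 8 of 15 did (53.3%), including H3f3b, which encodes H3.3, Daxx, the histone chaperone gene Nasp and Setd2, which encodes a methyltransferase for H3K36. Of the γH2AX signalling list 7 of 19 did (36.8%), including H2ax itself, Mdc1, Hormad1 and Rad9a. Of the meiotic prophase list 15 of 53 did (28.3%), with Mov10l1, Bhmg1, Ddx4 and Hormad1 ranked highest. These lists were chosen with earlier results of these data known, so their shares are a description beside the 11.5% of all autosomal coding genes.

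Other lists lay nearer that background or below it. The set held 22 of 84 heat shock and chaperonin genes (26.2%), 17 of 68 translation factor genes (25%), 17 of 79 ribosomal protein genes (21.5%) and 10 of 50 proteasome genes (20%). Of the spermatid list it held 6 of 46 (13%), including Ldhc, Odf2, Rfx2 and Hspa1l, and of the spermatogonia list 1 of 26, Nanos3. Somatic cell lists gave 1 of 20 Sertoli genes (Amh), 1 of 12 Leydig genes (Star) and 3 of 14 peritubular and blood genes (Cd68, Cnn1 and Tagln). Of zinc finger genes with Zfp names 27 of 388 (6.96%) were in the set, of imprinted genes 1 of 50 (Phlda2) and of replication-type and linker histone genes, matched by name, 1 of 67 (H1f10, apart from the histone gene clusters). No gene of the Hox and homeobox clusters (39), olfactory receptors (1104), vomeronasal receptors (352), defensins (72) or keratins (109) was in it.

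Whether the choice held in libraries it did not use was read from Cg replicate 1 and the 6 carrier libraries. Enrichment is the ratio of a library to the pooled B6 and 1Rb_M inputs, scaled to a median of 1 over the eligible windows. In Cg replicate 1, the deepest library with 128348440 counts, the median H3.3-rich window stood at 2.20-fold, with a range of 1.25 to 3.09. In 1Rb replicates 1, 2 and 3 the median was 2.02, 2.20 and 2.25-fold, a mean of 2.16 ± 0.12 (SD, n = 3). In 3Rb replicates 1, 2 and 3 it was 2.11, 1.96 and 1.96-fold, a mean of 2.01 ± 0.09 (SD, n = 3). The 2 groups overlap, because 1Rb replicate 1 is below 3Rb replicate 1. All 1000 windows were above the autosomal median in each of these 7 libraries, against 48.9% of the other eligible windows.

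The exact order was kept less well than the level. When the 1000 highest windows were taken anew in each library against the pooled inputs, 731 of the set were among them in Cg replicate 1, 746, 715 and 754 in 1Rb, and 767, 743 and 732 in 3Rb. In all 7 libraries at once, 537 were. Against the same pooled inputs, 769 and 757 were among the 1000 highest of Cg replicates 2 and 3, the libraries that chose the set. Against the Cg input, as in the choice, 924 were among the 1000 highest by Cg replicate 2 alone and 918 by Cg replicate 3 alone.

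**Figure D2:**
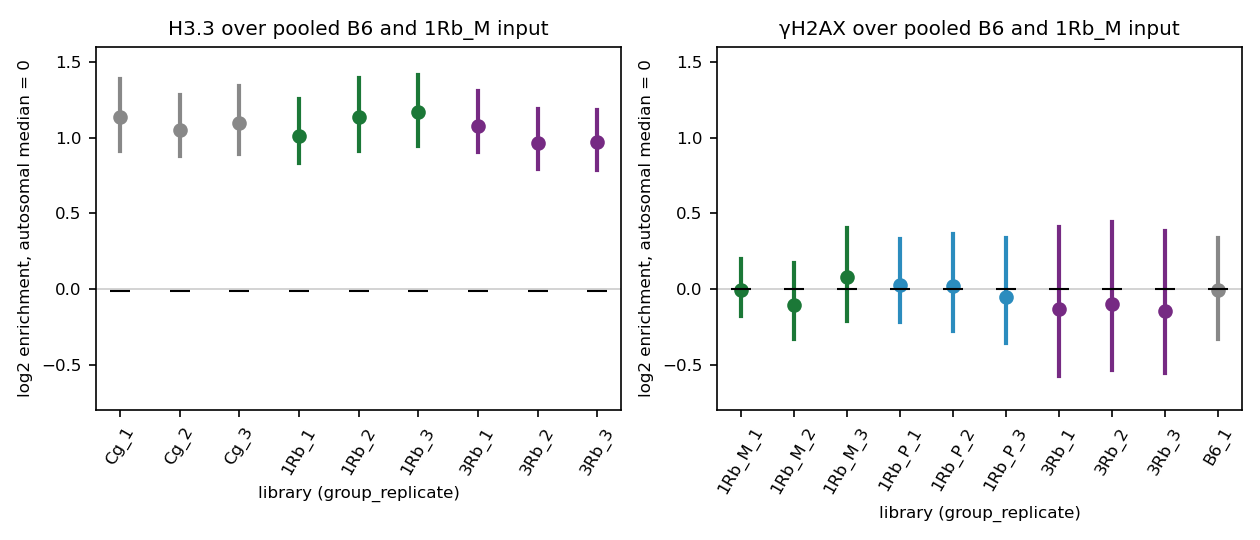
Median log2 enrichment of the 1000 H3.3-rich windows in each library (point), with the 5th to 95th percentile of these windows (line), for H3.3 (left) and γH2AX (right); the dash is the median of the other eligible windows. The H3.3 medians lie between 0.97 and 1.17, Cg_2 and Cg_3 being the libraries used in the choice, and the γH2AX medians lie between −0.14 and 0.08.

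The highest-ranked windows were high in every H3.3 library. The window of Mllt10 (chr2:18100001-18150000), a cofactor of the methyltransferase Dot1l, stood at 2.51-fold in Cg replicate 1, at 2.57, 2.51 and 2.65 in 1Rb and at 2.65, 2.33 and 2.26 in 3Rb. The window of Fzr1, an activator of the anaphase-promoting complex, and Mfsd12 (chr10:81350001-81400000) stood at 3.09 in Cg replicate 1, at 2.49, 3.00 and 3.26 in 1Rb and at 2.64, 2.43 and 2.58 in 3Rb. Nup205 (chr6:35200001-35250000), a scaffold protein of the nuclear pore, stood at 2.35 in Cg replicate 1, at 2.28, 2.36 and 2.51 in 1Rb and at 2.48, 2.25 and 2.20 in 3Rb. The Fzr1 window holds 8 coding genes and the others 1 each, and the 3 windows were at more than 2-fold in all 7 libraries.

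The other named windows of high ratio, taken after merging neighbours and putting windows with coding genes first (down to rank 21), held Gm38564, Mroh4, Dnah8, C2cd4b, Chst1 (a keratan sulfate sulfotransferase), Son with Donson (a splicing and a replication factor), Elfn2, Fam178b with Sema4c, Ptges3 with Baz2a (a co-chaperone and a subunit of the nucleolar remodelling complex), Stox1 with Ddx50, Nol4l with Asxl1 (a Polycomb-related deubiquitinase cofactor) and Med26 of the Mediator complex. Without Dnah8 they stood at 2.57 to 2.90-fold in Cg replicate 1. γH2AX differed among them: Elfn2 was lowest, at 0.537, 0.516 and 0.555-fold in 3Rb, and Mllt10 was above 1 in all carriers, at 1.10 to 1.22-fold.

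At some windows the Cg input, the denominator of the choice, differed from the other inputs. At 6 of the 1000 windows the 1Rb_M input was 1.5-fold or more above the Cg input, scaled to the same median over the eligible windows, against 44 of all 47983 eligible windows, and at none was it that far below. These were 5 windows of the Btbd9, Glo1 and Dnah8 run, at 1.51, 1.62, 1.64, 1.53 and 1.52-fold, and the window of rank 1 (chr17:27300001-27350000, no coding gene) at 1.55-fold. The B6 input differed from the Cg input there by 1.06 to 1.17-fold. Over the 7 windows of the run, H3.3 was at 1.77-fold in Cg replicate 1, at 2.46, 2.64 and 2.69 in 1Rb and at 2.5, 2.32 and 2.28 in 3Rb, with all 6 carriers above Cg. At the window of rank 1 it was at 2.19 in Cg replicate 1, at 2.73, 3.3 and 3.47 in 1Rb and at 2.16, 1.93 and 2.0 in 3Rb. How far the input differences account for these values was not tested.

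The lowest windows of Cg replicate 1 were of another kind. The 3 lowest lay near the distal ends of chromosomes 18, 14 and 2 (chr18:90600001-90650000, chr14:124800001-124850000 and Gm14496 at chr2:182000001-182050000), at 1.25, 1.28 and 1.31-fold. The B6 input there was 2.83, 3.11 and 3.08 times the Cg input, and the 1Rb_M input 1.46, 1.43 and 1.40 times. With both above it, the pooled inputs gave a lower enrichment than the Cg input used for the choice. The next lowest were the windows of Btbd9 with Glo1, at 1.45, and Dnah8 with Glo1, at 1.57.

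γH2AX at the H3.3-rich windows lay close to the autosomal level. The median window stood at 0.998, 0.930 and 1.06-fold in 1Rb_M, at 1.02, 1.02 and 0.963 in 1Rb_P, at 0.914, 0.935 and 0.906 in 3Rb and at 0.998 in the B6 library. The group means were 0.995 ± 0.063, 0.999 ± 0.031 and 0.918 ± 0.015 (SD, n = 3), and all 3 libraries of 3Rb lay below every 1Rb_P library but overlapped 1Rb_M, whose replicate 2 was at 0.930. Across the 1000 windows the mean log2 γH2AX of the 9 carrier libraries and the mean log2 H3.3 of the 6 carrier libraries had a Spearman rho of −0.145, and across all eligible windows of −0.044. Both marks share the input in this ratio, so the rho is only a description.

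Within the set γH2AX was lower where genes were more numerous in 3Rb. Spearman's rho with the number of coding genes was −0.331, −0.283 and −0.318 in 3Rb, −0.069, −0.345 and 0.016 in 1Rb_M, −0.055, −0.092 and −0.201 in 1Rb_P and 0.011 in B6, over 1000 windows each. 1Rb_M replicate 2 resembled 3Rb in this and its fellow replicates did not. H3.3 in the same windows had a rho of 0.277 in Cg replicate 1, −0.046, 0.295 and 0.246 in 1Rb and 0.052, 0.110 and 0.153 in 3Rb. Within the set 1Rb replicate 1 thus stood apart from the others of its group. Over all eligible windows the H3.3 rho was 0.560, 0.573 and 0.575 in 1Rb, so it did not stand apart there. The γH2AX rho there was −0.163, −0.108 and −0.157 in 3Rb, 0.014, −0.210 and 0.198 in 1Rb_M and −0.100 to 0.006 in 1Rb_P.

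The windows with the most γH2AX were those next to the joined centromeres of 8 and 12. Only 3 of the 1000 windows lay in the proximal 10 Mb of these chromosomes, and they were the 3 highest by the mean of the carriers. Asxl2 (chr12:3450001-3500000), a relative of Asxl1, stood at 2.57, 2.43 and 3.97-fold in 1Rb_M, at 3.46, 3.45 and 3.35 in 1Rb_P and at 3.04, 3.24 and 3.08 in 3Rb. Pum2 (chr12:8700001-8750000), an RNA-binding translational repressor, stood at 2.03, 2.16 and 3.23 in 1Rb_M, at 2.95, 2.94 and 2.88 in 1Rb_P and at 2.93, 3.02 and 2.74 in 3Rb. Timm44 with Elavl1 (chr8:4250001-4300000), of mitochondrial import and mRNA stability, stood at 2.05, 1.8 and 3.03 in 1Rb_M, at 2.47, 2.58 and 2.28 in 1Rb_P and at 1.78, 1.98 and 1.89 in 3Rb. Their median was at a log2 of 0.04 in the B6 library, below the 1.035 to 1.693 of the carriers. H3.3 at the 3 windows had a median log2 of 0.88 to 1.06 in the 7 libraries outside the choice. The next highest were Baz1a and Srp54b with Fam177a2, at chr12:54900001-54950000 and chr12:55150001-55200000; Srp54b has near-identical neighbours, so its counts are uncertain.

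The windows with the least γH2AX were Dot1l with Plekhj1 (chr10:80750001-80800000), Gm40363, Elfn2, Prmt8 and Atp8b3 with Onecut3. Dot1l with Plekhj1 stood at 0.785, 0.695 and 0.751-fold in 1Rb_M, at 0.811, 0.724 and 0.691 in 1Rb_P and at 0.522, 0.564 and 0.499 in 3Rb. The 3Rb libraries were below all others there, while H3.3 was at 2.54 in Cg replicate 1, at 2.17 to 2.58 in 1Rb and at 2.09 to 2.22 in 3Rb. Both this window and that of Atp8b3 belong to the run of 8 windows on chromosome 10, where γH2AX over the whole run was at 0.613, 0.639 and 0.614-fold in 3Rb and at 0.746 to 0.889 in the 1Rb libraries.

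In 3Rb against 1Rb_M, γH2AX was higher at 110 of the 1000 windows and lower at 372 (edgeR's quasi-likelihood test, Benjamini-Hochberg adjusted p under 0.05 over all windows, n = 3 each). Of all autosomal windows 17.8% were called higher and 21.1% lower. The 1000 windows had a median log2 difference of −0.106, against 0.003 over the autosomes. Of the 1000 windows 11 differed by 1.5-fold or more, a smaller share than among the other eligible windows. Against 1Rb_P, with the same 3Rb libraries, 64 windows were higher (autosomes: 10.7%) and 330 lower (autosomes: 12.2%), with a median of −0.100 against 0.002. Scaling by library totals in place of TMM moved the autosomal median of the 1Rb_M comparison to −0.097 and its calls to 40 higher (autosomes: 7.22%) and 578 lower (autosomes: 32.0%), with the H3.3-rich windows still 0.108 below the autosomal median. Leaving out 1Rb_P replicate 1 moved the second comparison to 40 higher (autosomes: 7.07%) and 210 lower (autosomes: 7.62%), and leaving out replicate 2 to 40 higher (autosomes: 6.63%).

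**Figure D3:**
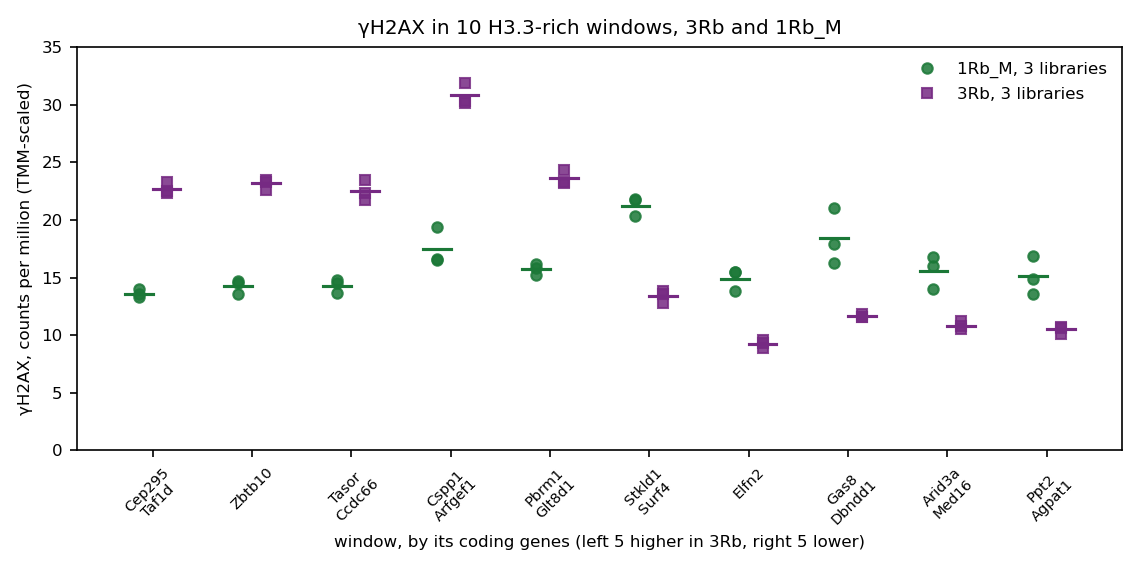
γH2AX in CPM, library-scaled window counts (vertical), at the 10 named windows of the 3Rb and 1Rb_M comparison (horizontal), with each library as a point and the group mean as a line. At the 5 left windows every 3Rb library lies above every 1Rb_M library, for example 22.3 to 23.3 against 13.3 to 14 at Cep295 and Taf1d, and at the 5 right windows every 3Rb library lies below.

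The windows that rose most clearly in 3Rb all lay on chromosomes 1, 3, 9 and 14, which are joined in 3Rb and free in 1Rb. Cep295 (a centriole protein) with Taf1d (chr9:15300001-15350000) had 23.3, 22.5 and 22.3 CPM (window counts scaled to library size) in 3Rb, 14, 13.3 and 13.6 in 1Rb_M and 13.2, 12.4 and 13.5 in 1Rb_P. The log2 difference from 1Rb_M was 0.74 ± 0.06 (SE; edgeR adjusted p = 2.07e-11) and from 1Rb_P 0.80 ± 0.06 (edgeR adjusted p = 4.16e-12). Cspp1 (a centrosome and cilium protein) with Arfgef1 (chr1:10100001-10150000) had 30.1, 31.9 and 30.3 in 3Rb against 16.5, 16.6 and 19.4 in 1Rb_M, a log2 difference of 0.81 ± 0.08 (edgeR adjusted p = 2.33e-09). The groups were far apart at both. Zbtb10 on chromosome 3, Tasor with Ccdc66 and Pbrm1 with Glt8d1 on chromosome 14 followed, with log2 differences of 0.70, 0.65 and 0.59. Tasor encodes a subunit of the HUSH silencing complex and Pbrm1 a subunit of a SWI/SNF remodeller. These 5 windows had H3.3 differences between 3Rb and 1Rb of −0.119 to −0.015 on the log2 scale, none of which passed the test.

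By position, only 2 of the 1000 windows lay in the proximal 10 Mb of 1, 3, 9 and 14, and both rose against 1Rb_M, as did 88.9% of the other eligible windows there. In the rest of these 4 chromosomes 44 of 152 rose (28.9%) and 20 fell (13.2%), against 28.2% and 14.1% of the other windows, so the H3.3-rich windows were near their surroundings. On the autosomes in none of the translocations, beyond the proximal 10 Mb, 49 of 690 rose (7.10%) and 306 fell (44.3%), against 12.6% and 24.5% of the others. Of the 27 windows on chromosome 14, 14 rose (51.9%) and none fell, against 49.8% and 7.6% of its other windows. Of the 84 on chromosome 7 none rose and 54 fell (64.3%), against 3.3% and 41.0% of the others there. Of the 80 on chromosome 17, 5 rose (6.25%) and 54 fell (67.5%), against 9.91% and 32.9%.

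The windows that fell most clearly lay on other chromosomes. Stkld1 with Surf4 (chr2:26900001-26950000), where Surf4 is a cargo receptor of the endoplasmic reticulum and the ribosomal protein gene Rpl7a also lies, had 12.8, 13.8 and 13.6 CPM in 3Rb against 21.7, 20.3 and 21.8 in 1Rb_M, a log2 difference of −0.67 ± 0.07 (edgeR adjusted p = 4.74e-09). Elfn2 (chr15:78650001-78700000) had 9.30, 8.88 and 9.56 against 15.5, 13.8 and 15.5, a log2 difference of −0.69 ± 0.08 (edgeR adjusted p = 2.64e-08). Gas8, a subunit of the dynein regulatory complex, with Dbndd1 (chr8:123500001-123550000) had 11.8, 11.6 and 11.6 against 17.9, 16.3 and 21. The libraries of the groups did not overlap at any of the 3. Arid3a with Med16 and Ppt2 with Agpat1 were also lower, by log2 differences of −0.52 and −0.53. Against 1Rb_P the windows of Il11ra1 with Ccl27a, Prodh2 with Arhgap33 and Map2k2 with Zbtb7a were among the clearest to fall, by −0.51, −0.46 and −0.50.

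The share of windows that fell differed with the number of coding genes, and windows outside the set fell too. Of the H3.3-rich windows with 3 or more coding genes 234 of 432 fell against 1Rb_M (54.2%), and of the other eligible windows with 3 or more genes 44.1% did. With 1 or 2 genes the shares were 23.1% and 24.5%, and the medians −0.035 and −0.018. The 23 H3.3-rich windows without a coding gene broke the order: 12 fell (52.2%, median −0.211), against 13.5% of the other windows without one, and 12 fell against 1Rb_P as well. Ranked by the ratio that chose the set, 44.0% of the first 250 windows fell, 34.2% of ranks 501 to 1000, 31.5% of ranks 1001 to 2000, and 39.1% of ranks 10001 to 20000, so the share did not drop off at the threshold. Only beyond rank 20000 did more windows rise (22.1%) than fall (10%).

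**Figure D4:**
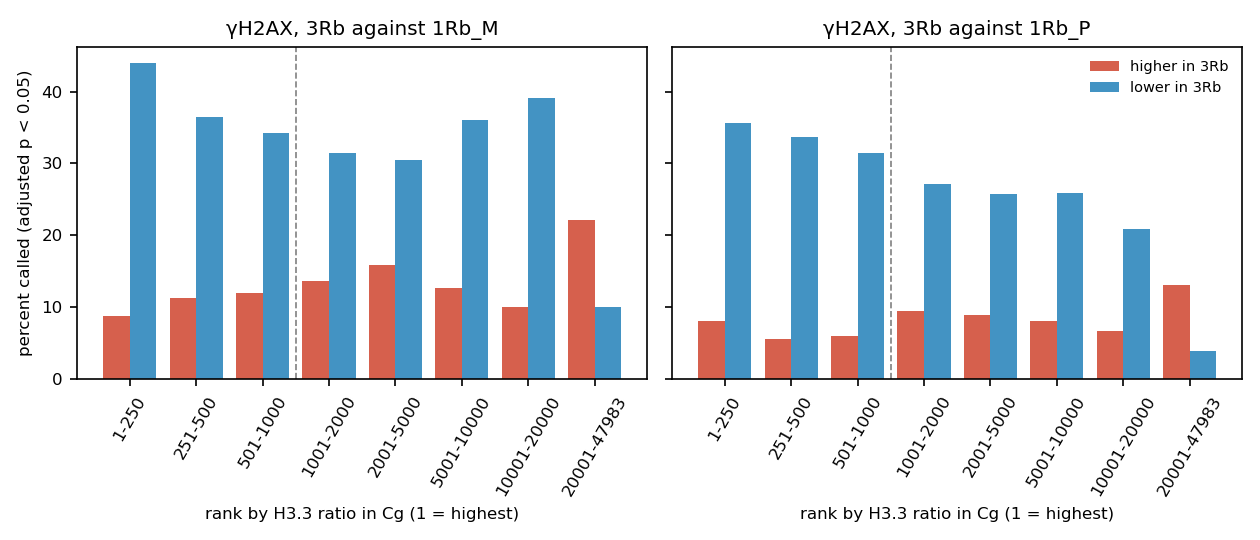
Percent of windows with γH2AX called higher or lower in 3Rb (vertical), against 1Rb_M (left) and 1Rb_P (right), by the window's rank in the H3.3 ratio of Cg (horizontal; the dashed line is at rank 1000). Left of the line 34.2 to 44.0% fell against 1Rb_M, and windows just beyond it fell at 31.5%.

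Among the gene lists, γH2AX fell at 10 of the 17 H3.3-rich windows with ribosomal protein genes and rose at none, in both comparisons with 3Rb, with a median log2 difference of −0.257 from 1Rb_M. Beside these counts, 37.2% of all H3.3-rich windows and 54.2% of those with 3 or more coding genes fell against 1Rb_M. Each listed gene was entered with 1 of its H3.3-rich windows. The lists of translation factors, housekeeping genes, γH2AX signalling and meiotic prophase had 21, 10, 8 and 18 such windows, so some were left out. The median was −0.184 for translation factors (10 of 17 fell and 2 rose), −0.253 for the spermatid list (5 of 6 fell) and −0.125 for housekeeping genes (4 of 9 fell). For the γH2AX signalling list it was −0.071 (2 of 7 fell) and for the meiotic prophase list −0.071 (2 of 15 fell and 1 rose). At Mdc1, the adaptor that binds γH2AX, the window stood at 0.574, 0.621 and 0.661-fold in 3Rb and at 0.928, 0.770 and 0.867 in 1Rb_M. At Ddx4, the germ cell helicase, it stood at 1.37, 1.23 and 1.34 in 3Rb and at 1.04, 1.13 and 1.21 in 1Rb_M. These medians lie on both sides of the −0.106 of all 1000 windows.

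Few H3.3-rich windows differed in γH2AX between the 1Rb crosses, 1Rb_P and 1Rb_M, whose partner strains also differ (C57BL/6J and B6.SPRET7MOLF12). In 1Rb_P against 1Rb_M 2 windows were higher (autosomes: 0.918%) and 1 lower (autosomes: 0.331%), and the median difference was 0.001. The 2 higher windows, chr4:42550001-42600000 and chr4:42050001-42100000, have no coding gene in the annotation and lie beside the duplicated Ccl19, Ccl21 and Il11ra genes, so that reads of near-identical copies cannot be told apart. The first had 10.8, 11.3 and 10.6 CPM in 1Rb_P against 7.09, 7.22 and 8.37 in 1Rb_M (log2 difference 0.53 ± 0.08, edgeR adjusted p = 2.32e-04). The second also had less H3.3 in 1Rb than in Cg replicate 1. These counts rest on single libraries: without 1Rb_M replicate 3, 100 windows were higher (autosomes: 6.36%) and 21 lower (autosomes: 11.1%), and without 1Rb_M replicate 2, 6 were higher (autosomes: 7.37%) and 40 lower (autosomes: 4.14%).

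The H3.3 difference between 3Rb and 1Rb was small and below 0 at most windows, and few windows passed the test on their own. In 3Rb against 1Rb 1 window was higher (autosomes: 2.02%) and 14 lower (autosomes: 1.52%). The median log2 difference was −0.088, against 0.007 over the autosomes, and 26 of the 1000 windows were above 0. In 123 windows every 3Rb library was below every 1Rb library (autosomes: 7.46%) and in 1 every one was above (autosomes: 10.2%). Without 1Rb replicate 1 the count lower rose to 507, with 8.79% of all autosomal windows then called lower, and the median went to −0.124. The count lower was 7 without 1Rb replicate 2 (autosomes: 0.960%) and 6 without 1Rb replicate 3 (autosomes: 0.956%). It was 25 without 3Rb replicate 1 (autosomes: 1.38%), and 6 each without 3Rb replicates 2 and 3 (autosomes: 0.896% and 1.00%).

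The difference moved with the range of each library. The SD of log2 enrichment over all eligible windows was 0.356, 0.424 and 0.432 in 1Rb and 0.390, 0.347 and 0.346 in 3Rb, and 0.438 in Cg replicate 1. Divided by that SD, the median H3.3-rich window stood at 2.75 ± 0.09 in 1Rb and 2.79 ± 0.02 in 3Rb (SD, n = 3), and at 2.60 in Cg replicate 1, so on this scale 3Rb was not the lower group. The fitted difference also fell steadily with rank, from 0.046 beyond rank 20000 to −0.072 at ranks 1001 to 2000 and −0.097 in the first 250 windows. The part of the libraries' range in the difference was not tested.

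The H3.3 changes of smallest adjusted p sat in a few places. The window of rank 1 fell by 0.63 on the log2 scale in 3Rb against 1Rb (edgeR adjusted p = 8.13e-18), and its neighbour chr17:27350001-27400000 by 0.50; as given above, the 1Rb_M input was also high at the first. Tcte3 (a dynein light chain of the testis) with Ermard (chr17:15000001-15050000) had 49.3, 45.3 and 47.1 CPM in 3Rb against 67.2, 70.2 and 71.2 in 1Rb, a log2 difference of −0.56 ± 0.06 (edgeR adjusted p = 2.54e-15). The 1Rb_M input was 1.34 times the Cg input there and the B6 input 0.892 times. Stkld1 with Surf4 had 43.2, 41.3 and 41.2 in 3Rb against 51.3, 58.6 and 60.6 in 1Rb, a log2 difference of −0.44 ± 0.06 (edgeR adjusted p = 2.31e-10), with the 1Rb_M input at 1.33 times the Cg input. Fcgr3 (an Fc receptor of myeloid cells), Fbrs with Prr14, and Dlg5 fell by smaller differences of −0.24, −0.21 and −0.19, at 1Rb_M inputs of 0.958, 0.954 and 1.09 times the Cg input. Each of these 3 calls was lost with the replicate block and without any one of 1Rb replicates 2 and 3 and 3Rb replicates 2 and 3, with differences of −0.138 to −0.245. The 1 window that was higher in 3Rb was Tmem267 (chr13:119550001-119600000), with 116, 106 and 110 against 94.2, 88.5 and 92.1.

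Of the 14 windows with less H3.3 in 3Rb, 12 also had less γH2AX in 3Rb than in 1Rb_M, among the 372 with less γH2AX. Those 372 are 37.2% of the set, and 21.1% of autosomal windows had less γH2AX. The overlap of the 2 marks was not counted over all autosomal windows. Across the 1000 windows the 2 log2 differences had a Spearman rho of 0.436, and across all eligible windows of 0.475, as a description. The libraries of the 2 marks are different and the crosses are the same. At Stkld1 with Surf4 and at the rank 1 window the input titled 1Rb_M was above the Cg input, as given above.

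**Figure D5:**
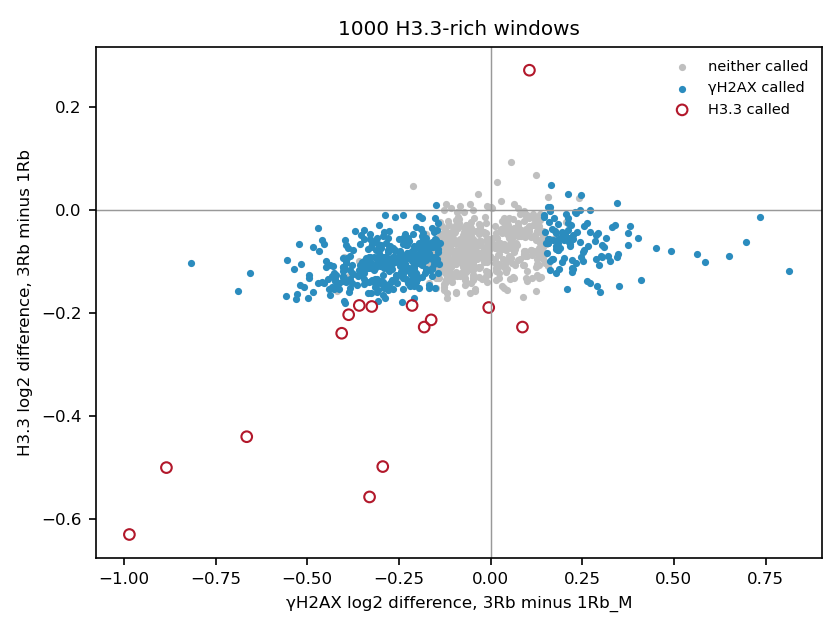
Difference in γH2AX between 3Rb and 1Rb_M (horizontal, log2) and in H3.3 between 3Rb and 1Rb (vertical, log2) for each of the 1000 windows, blue where γH2AX was called and ringed where H3.3 was called. The cloud lies below 0 for H3.3, with a median of −0.088, and 5 ringed windows stand apart below −0.4.

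Against the single Cg library outside the choice, which is assumed in the fit to vary like the carrier groups, the 2 carriers gave different counts. In 1Rb against Cg replicate 1, 13 windows were higher (autosomes: 0.979%) and 4 lower (autosomes: 0.948%), with a median log2 difference of −0.027. In 3Rb against Cg replicate 1, 10 were higher (autosomes: 6.16%) and 67 lower (autosomes: 4.16%), with a median of −0.114 against 0.015 over the autosomes. Without 1Rb replicate 1, which enters that fit through the shared spread, 378 were lower (autosomes: 9.87%), and without 3Rb replicates 2 or 3, 10 and 13 (autosomes: 1.51% and 1.94%). Cg replicate 1 stood apart from the other Cg libraries: chi-square per degree of freedom was 8.04 and 5.59 against replicates 2 and 3, and 1.47 between those. The SD of its log2 enrichment was 0.438, against 0.382 and 0.400, and the part of this in the counts was not tested. The comparisons share Cg replicate 1, and whether 1Rb and 3Rb differ is given above by their direct test.

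Of the 13 windows higher in 1Rb, 8 were those of the Btbd9, Glo1 and Dnah8 run and the window of rank 1, and without these 8 windows 5 remained. The Btbd9 and Glo1 window (chr17:30550001-30600000) had 46.7, 52.1 and 51.9 CPM in 1Rb and 48.2, 46.7 and 47.1 in 3Rb against 33.3 in Cg replicate 1, log2 differences of 0.59 ± 0.09 and 0.51 ± 0.09 (edgeR adjusted p = 1.11e-08 and 3.47e-07). Phf10 with Gm3417, next to Tcte3 on chromosome 17, was higher in 1Rb by 0.48 ± 0.09, and the windows near the ends of chromosomes 18 and 14 by 0.46 and 0.44. At these windows, in that order, the 1Rb_M input was 1.33, 1.46 and 1.43 times the Cg input. The part of these input differences in the H3.3 differences was not tested. The windows lower in 3Rb included Srp54b with Fam177a2 (−0.37), Fcgr3 (−0.47), Ahdc1 (−0.37), Gm40363 (−0.40) and Rsph3b (−0.35). Fcgr3 had 68.2, 63.7 and 66.7 CPM in 3Rb against 91.7 in Cg replicate 1, and 69.6, 82.9 and 81.9 in 1Rb. At Srp54b the 1Rb libraries split, at 1.46, 2.30 and 1.48-fold over input, against 2.29 in Cg replicate 1 and 1.85, 1.70 and 1.70 in 3Rb.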

How the data were processed

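Whole testis was profiled by ChIP-seq against H3.3 or γH2AX in 19 libraries, with 3 inputs. The authors deposited a count of reads per 50 kb window for each library, not normalized. Per the submitters' processing notes, CASAVA 1.8, BWA and mm10 were used; filters and read settings are not given in the sources used here. Totals per library ran from 11876426 (B6 input) to 128348440 (H3.3 Cg replicate 1), and the median H3.3-rich window held 240 to 4941 counts, so the B6 input is the least precise. Replicates were compared over eligible windows: over 18 pairs, chi-square divided by its degrees of freedom was 1.30 to 11.0, so replicates within a group differed by more than counting noise.

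Because the choice of windows used H3.3 of Cg replicates 2 and 3 and the Cg input, enrichment was taken against the pooled B6 and 1Rb_M inputs, with 0.5 added to each count, relative to the median of the eligible windows. The H3.3 fit used the other 7 H3.3 libraries and the γH2AX fit the 9 carrier libraries. B6 γH2AX was described only. Windows averaging 10 or more counts were fitted with edgeR 4.0.16 (R 4.3.3; a quasi-likelihood test after TMM scaling, with p-values adjusted by Benjamini-Hochberg over all tested windows, X and Y included) with an adjusted p under 0.05 as a call. Every adjusted p is from edgeR. Log2 differences are given ± SE and CPM values are scaled by edgeR. On counts simulated from the real means the fits were tested with 200 changed windows. The background beside each count is the percent of autosomal windows called in that direction by the same fit.

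The windows and gene lists were chosen with earlier results of these data known. Named windows were the 15 of highest ratio, 3 on each side of the threshold, the 5 longest runs, the 5 highest and 5 lowest in mean γH2AX, the 5 lowest in Cg replicate 1, up to 4 genes per list and, per comparison and direction, the 5 of smallest adjusted p whose groups did not overlap (neighbours merged, at most 2 per chromosome, at most 3 among the highest, coding genes first). Windows at Mdc1 and Ddx4 come from the lists; other windows of rank 1 or of unequal input were singled out after their values were seen. Genes and promoters came from RefSeq, GRCm38.p6, the assembly of mm10. Alternatives were library totals, DESeq2 1.42.0, no filter, a replicate block, and leaving out windows of unusual input or single libraries. Further ones were other inputs, a pseudocount of 5, 500 or 2000 windows and a Cg input of 400 or more. An autosomal fit, a fit with all 9 H3.3 libraries and leaving out 8 windows were added after seeing the data. Those 8 were the windows of the Btbd9, Glo1 and Dnah8 run and of rank 1.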

Additional observations from a re-analysis of the deposited data

Results flagged for a closer look

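The inputs were used only as denominators, and 6 H3.3-rich windows stood out because the 1Rb_M input exceeded the Cg input by 1.5-fold or more. The window chr17:27300001-27350000 was at 1.55-fold. In the run at Btbd9, Glo1 and Dnah8 on chromosome 17, the windows starting at 30550001, 30600001, 30700001, 30750001 and 30850001 were at 1.51, 1.62, 1.64, 1.53 and 1.52-fold. The B6 input was 1.06 to 1.17 times the Cg input at the same windows. Each input is a single library.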

How the results depend on the processing

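The direction of the γH2AX counts (more windows lower than higher in 3Rb) was the same under all alternatives run, while the counts moved. With library totals, γH2AX in 3Rb against 1Rb_M gave 40 higher (autosomes: 7.22%) and 578 lower (autosomes: 32.0%). There 1Rb_P against 1Rb_M gave 6 lower (autosomes: 0.814%). With DESeq2, γH2AX in 3Rb against 1Rb_M gave 60 higher (autosomes: 10.3%). It gave 35 higher (autosomes: 6.09%) and 175 lower (autosomes: 5.69%) in 3Rb against 1Rb_P, and 0 lower in 1Rb_P against 1Rb_M (autosomes: 0.0458%). H3.3 with DESeq2 gave 2 lower in 1Rb (autosomes: 0.537%) and 24 lower in 3Rb (autosomes: 1.22%) against Cg replicate 1. Without windows of unusual input, H3.3 in 3Rb against 1Rb gave 0 higher (autosomes: 1.93%) and 9 lower (autosomes: 1.53%). There 3Rb against Cg replicate 1 gave 31 lower (autosomes: 4.12%). Fitted on autosomes alone, H3.3 in 3Rb against 1Rb gave 9 lower (autosomes: 1.38%). Without the 8 windows of the Btbd9, Glo1 and Dnah8 run and of rank 1, 5 were higher in 1Rb and 3 in 3Rb against Cg replicate 1. Those counts, and those of the 500 and 2000 highest windows, use the main fit, whose autosomal shares are given above. Per 1000 windows, the 500 highest gave 0 higher and 24 lower for H3.3 in 3Rb against 1Rb, 20 higher and 2 lower in 1Rb against Cg replicate 1, and 0 higher and 2 lower for γH2AX in 1Rb_P against 1Rb_M. The 2000 highest gave, per 1000, 2.5 higher for H3.3 in 3Rb against 1Rb, 8.50 higher in 1Rb against Cg replicate 1 and 0.5 lower for γH2AX in 1Rb_P against 1Rb_M. The cause was not tested for any of these.

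Replicate numbers do not pair the samples: deviations of same-numbered H3.3 libraries of 1Rb and 3Rb correlated at −0.356, −0.113 and −0.163. With a replicate block, H3.3 in 3Rb against 1Rb gave 0 higher (autosomes: 1.22%) and 6 lower (autosomes: 0.989%). Against Cg replicate 1, 1Rb gave 8 higher (autosomes: 0.546%), and 3Rb gave 6 higher (autosomes: 1.49%) and 9 lower (autosomes: 1.82%). With the block γH2AX in 1Rb_P against 1Rb_M gave 0 lower (autosomes: 0.137%).

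Leaving out 1 library at a time, H3.3 in 3Rb against 1Rb gave 1 higher (autosomes: 1.07 to 6.86%) and 6 to 507 lower (autosomes: 0.896 to 8.79%). Against Cg replicate 1, 1Rb gave 12 to 15 higher (autosomes: 0.781 to 1.12%) and 3 to 5 lower (autosomes: 0.681 to 0.973%). In 3Rb against Cg replicate 1, 8 to 12 were higher (autosomes: 2.22 to 11.1%) and 10 to 378 lower (autosomes: 1.51 to 9.87%). γH2AX in 3Rb against 1Rb_M gave 76 to 151 higher and 271 to 489 lower, 3Rb against 1Rb_P 40 to 85 higher and 210 to 413 lower, and 1Rb_P against 1Rb_M 2 to 100 higher and 0 to 40 lower. The 44 named differences were each looked up under the alternatives, 603 checks in all. In these 0 changed direction and 50 lost the call.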

Other observations

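Small RNA genes were annotated in 203 of the 1000 H3.3-rich windows (20.3%) and in 5.45% of the other eligible windows. The 4 windows with no annotated gene were not alike: chr7:69900001-69950000 stood at 2.52-fold in Cg replicate 1, at 2.35, 2.45 and 2.54 in 1Rb and at 2.44, 2.09 and 2.18 in 3Rb, while those near the ends of chromosomes 18 and 14 were at 1.25 and 1.28-fold in Cg replicate 1.

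Gene groups with few or no windows in the set were not all poor in H3.3. The 13 windows of the Hox and homeobox clusters, none of which was in the set, had a median log2 H3.3 enrichment of 0.82 in Cg replicate 1, 0.60, 0.75 and 0.75 in 1Rb and 0.71, 0.68 and 0.67 in 3Rb. Their median log2 γH2AX was −0.43, −0.41 and −0.35 in 3Rb, −0.40 in the B6 library and −0.31 to −0.10 in the 1Rb crosses. The 18 windows of listed histone genes, 1 of them in the set, had H3.3 at 0.75 in Cg replicate 1 and γH2AX at −0.52, −0.49 and −0.45 in 3Rb, −0.45 in B6 and −0.31 to −0.14 in the 1Rb crosses. Olfactory receptor windows, 575 of them, were at −0.28 for H3.3 in Cg replicate 1 and at 0.00, −0.05 and −0.01 for γH2AX in 3Rb.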
